A study of Mus musculus with 2 samples.

Results

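The 10 genes described here encode the machinery that makes peptides inside a cell and shows them on its surface with MHC class I. They are the immunoproteasome subunits Psmb8, Psmb9 and Psmb10, the peptide transport and trimming genes Tap1, Tap2, Tapbp and Erap1, and the class I chains B2m, H2-K1 and H2-D1. Each was found by its symbol in both count tables, and together they are 10 of 22609 gene rows. The group was chosen on measured values, since earlier results of the same libraries, in which Psmb8 stood high, were known when it was drawn up. The ratios of the members are therefore a description and carry no test.

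RNA was pulled down with an antibody to Ago2, the protein that carries a miRNA to its mRNAs, from TM4 cells, an established mouse Sertoli cell line. One group had been transfected with miR-471-5p mimic and the other with scramble, both 48 h earlier, and the labels give no other difference between them. The comparison asks which mRNAs were recovered with Ago2 in larger amounts after the mimic. There was 1 library per group, so no difference has a replicate check and no p-value is given. No library of RNA before the pull-down was analysed here, so more RNA of a gene and more Ago2 on it cannot be told apart, and neither can more expressing cells and more RNA per cell. A cell line transfected with a mimic is also not a Sertoli cell inside a tubule.

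Cells cut worn-out and newly made proteins into peptides with the proteasome, whose catalytic subunits can be exchanged for the immunosubunits Psmb8, Psmb9 and Psmb10. The peptides are carried into the endoplasmic reticulum by the Tap1-Tap2 transporter, trimmed by Erap1 and loaded with the help of Tapbp (tapasin) onto a class I heavy chain paired with B2m. Interferons raise most of these genes in many cell types, and in the testis class I display is of interest because the tubule shields germ cells from the immune system.

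The mimic library held 18628310 reads on genes and the scramble library 18717225, so that a floor of 3 reads equals 0.161 and 0.160 CPM (counts per total of 1000000 reads on genes). Genes with at least 20 reads over both libraries are called tested, 12186 in all and every member among them. Among 12 Sertoli cell markers, Kitl had 12245 and 16163 reads (mimic first, here and throughout), Sox9 1228 and 1070, Gata4 341 and 365 and Wt1 73 and 35, whereas Fshr and Gata1 had 0 reads in both libraries. The 8 leukocyte and macrophage markers found in the tables summed to 29 and 36 reads, with Ptprc, Cd3e, Itgam and Emr1 at 0. Of 6 Leydig and peritubular markers, Acta2 had 73076 and 101778 reads and the other five at most 69. The leukocyte list was thus near 0 in both libraries and not higher in the mimic library.

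The miRNA and the places in the members that pair with its seed are shown first, because the pull-down is read through this pairing. The mature strand (RefSeq, GRCm38.p6, chrX:66792634-66792655, minus strand) is printed with nucleotides 2 to 8, the seed, in capitals. The member sites below it are in DNA letters, with the bases that match the seed in capitals, along with an A opposite nucleotide 1 of the miRNA where one follows.
mmu-miR-471-5p: uACGUAGUauagugcuuuucac
Psmb8, coding: accaggactttACTACGTAgatgacaatgg
B2m, coding: atactgaactgCTACGTAacacagttcca
H2-K1, coding: atggaagtcggCTACGTggacgacacgg
Erap1, 3′-UTR: tttcactgaacCTACGTgcacatttgtt

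Psmb8 held an 8mer match, the seed match ACTACGT followed by A, in its coding region. It starts at base 551 of 828 coding bases, in exon 5 of 6 (GRCm38, chr17:34200724-34200731, plus strand). An 8mer lies in the longest coding region of 0.442% of 11772 tested genes, and ACTACGT itself in 4.35%. B2m held a 7mer-A1 match, the shorter CTACGT followed by the same A, in exon 2 of 4 (chr2:122150940-122150946, plus strand), and CTACGTA lies in 1.92% of coding regions, those with an 8mer included. The sites of H2-K1 and Erap1 were 6mers, CTACGT alone. The H2-K1 site is in exon 2 of 8 (chr17:33999922-33999927, minus strand), and 16.3% of coding regions hold CTACGT. The Erap1 site is at base 690 of a 3′-UTR of 2472 bases (chr13:74691419-74691424), and 6.77% of 11756 tested genes hold CTACGT in the 3′-UTR. No annotated 3′-UTR of any member held ACTACGT, which 1.56% of the 3′-UTRs do. These letters say nothing about whether Ago2 sat at a site, since reads were summed over whole genes.

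Of the 10 members, 5 were at least 2-fold higher in the mimic library, against 3.96% of all tested genes, and 0 were at least 2-fold lower, against 3.08%. The 5 were Psmb8, Psmb9, B2m, H2-K1 and H2-D1, and in each of them the whole 95% interval lay past 2-fold, which was so for 1.76% of all genes. Each interval was computed from the share of a gene's reads that fell in the mimic library (Clopper-Pearson, exact) and covers counting error only. At 1.5-fold the count was 7 of 10, with Psmb10 and Tap1 added, against 11.7%, and at 4-fold it was 1, Psmb8, against 0.771%. The median log2 ratio of the members was 1.03, and that of all tested genes was 0.00 with a 5th to 95th percentile range from -0.80 to 0.91. Just inside the 2-fold limit lay B2m at 1.16 and just outside it Tap1 at 0.91. As the rule used these same values, the counts are printed beside the background and nothing is read from them.

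**Figure D1:**
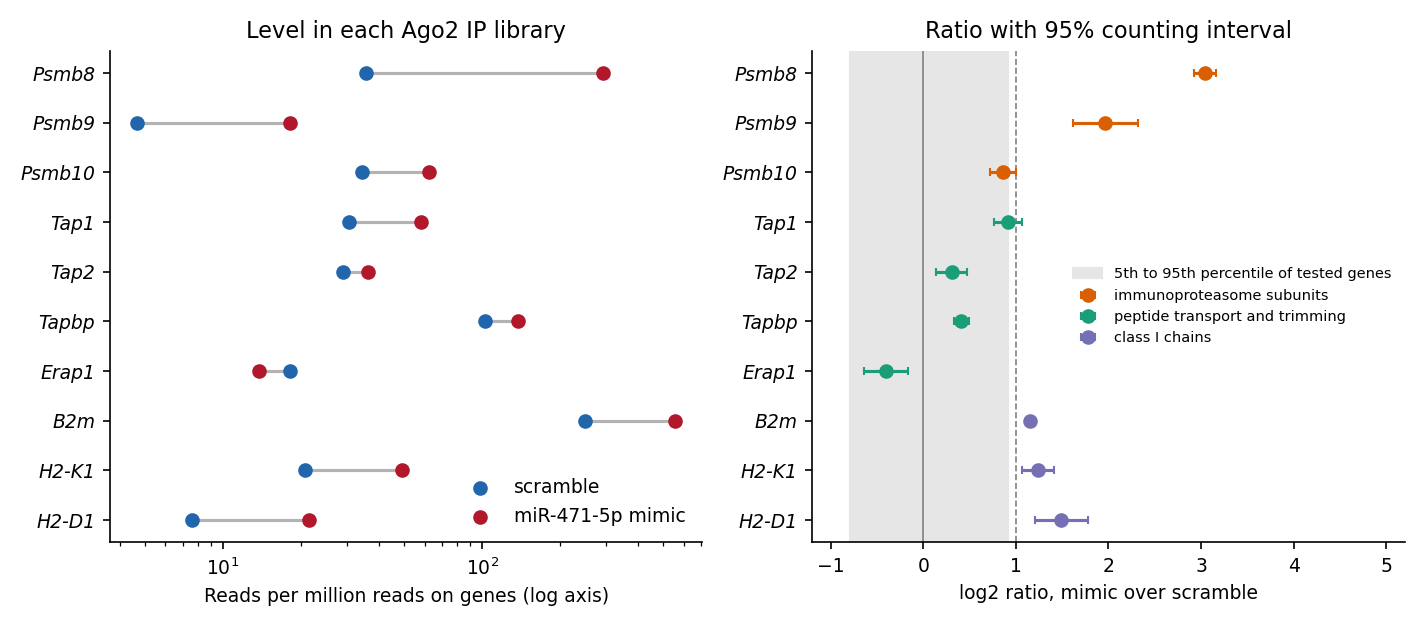
Left, level in CPM, the reads per 1000000 reads on genes (log axis), of each member in the scramble (blue) and miR-471-5p mimic (red) library. Right, log2 ratio of mimic over scramble with its 95% counting interval, coloured by role, over a grey band from the 5th to the 95th percentile of tested genes, with a dashed line at 2-fold. Psmb8 at 3.04 lies farthest to the right and Erap1 at -0.41 is the only member left of 0.

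The immunoproteasome subunits were higher in the mimic library by very unequal amounts. Psmb8, the chymotrypsin-like immunosubunit, was counted with 5476 reads after the mimic and 665 after scramble. Its log2 ratio was 3.04 (95% counting interval 2.92 to 3.16), which is 8.23-fold, and it ranked 27 of 12186. Psmb9, the immunosubunit that replaces Psmb6, had 338 and 87 reads and a log2 ratio of 1.96 (1.61 to 2.31). Psmb10, which replaces Psmb7, had 1163 and 642 reads and a log2 ratio of 0.86 (0.716 to 0.998), which is 1.81-fold and at percentile 94.3 of tested genes. Psmb8 differed from Psmb9 by 2.12-fold (1.63 to 2.73) and from Psmb10 by 4.54-fold (4.0 to 5.16) in this ratio. Summed, the 3 subunits took 375 and 74.5 CPM, a log2 ratio of 2.32 (2.24 to 2.41), and 5476 of the 6977 mimic reads were of Psmb8.

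Each immunosubunit competes for its place with 1 constitutive subunit, so the pair can be compared inside a library, where scaling plays no part. Per kilobase of transcript, Psmb8 stood at 5.12 times Psmb5 in the mimic library and 1.09 times in the scramble library, a change of 4.71-fold (4.01 to 5.52). For Psmb9 over Psmb6 the level ratios were 0.147 and 0.0575, which differ 2.56-fold (1.98 to 3.32). For Psmb10 over Psmb7 they were 0.680 and 0.483, which differ 1.41-fold (1.24 to 1.60). All 3 pairs thus leaned further to the immunosubunit in the mimic library, and per length Psmb8 in the mimic library was the only immunosubunit above its partner beyond counting error. Without division by length Psmb8 over Psmb5 was 9.27 in the mimic library and 1.97 (665 against 338 reads) in the scramble library, above its partner in both, and Psmb9 and Psmb10 stayed below theirs. Immunosubunits made up 55.1% of the summed level per length of the 6 catalytic subunits after the mimic and 27.7% after scramble, and 23.7% and 18.1% with Psmb8 left out. The Psmb5 transcript shares 57.1% of its 50-base windows with other annotated genes, foremost Gm3375, so reads on Psmb5 may have been set aside in both libraries and the levels relative to it are uncertain.

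**Figure D2:**
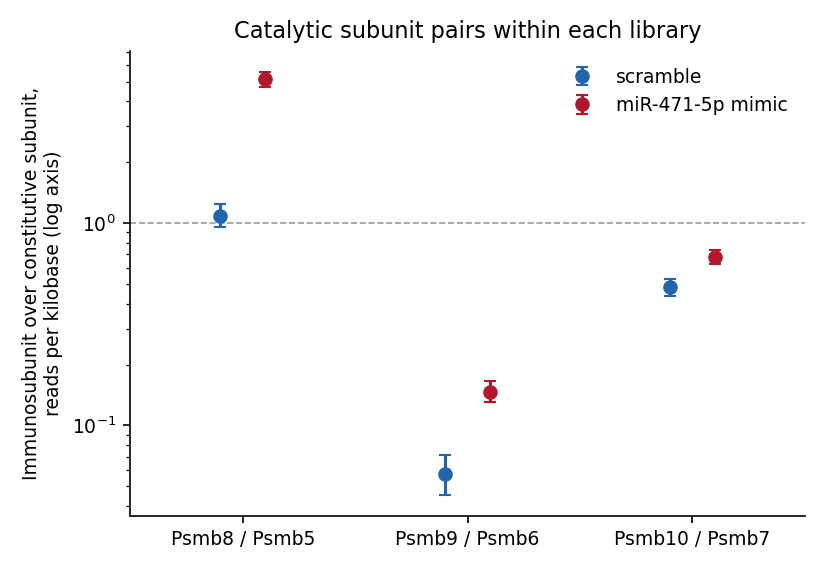
Level of each immunosubunit over the constitutive subunit it replaces, in reads per kilobase on a log axis, in the scramble (blue) and mimic (red) library, with 95% counting intervals. The Psmb8 over Psmb5 ratio goes from 1.09 to 5.12, while both other pairs stay below the dashed line of equal levels in both libraries.

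Among the peptide transport and trimming genes 0 of 4 were past 2-fold, against 3.96% of all tested genes higher and 3.08% lower. Tap1 was the highest, and Erap1 was lower in the mimic library. Tap1, a transporter subunit, had 1079 and 573 reads and a log2 ratio of 0.91 (0.76 to 1.06), and ranked 609 of 12186. Tap2, its partner in the transporter, had 673 and 544 reads and a log2 ratio of 0.31 (0.14 to 0.47). The change in Tap1 exceeded that in Tap2 by 1.52-fold (1.30 to 1.78), although both subunits form 1 transporter. Tapbp, the bridge between transporter and class I chain, had 2564 and 1926 reads and a log2 ratio of 0.41 (0.33 to 0.50). Erap1, the aminopeptidase that trims peptides in the endoplasmic reticulum, had 256 and 339 reads and was lower in the mimic library, at -0.41 (-0.65 to -0.17). The 4 genes summed to 245 and 181 CPM, a log2 ratio of 0.43 (0.37 to 0.50).

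The class I chains were all past 2-fold. B2m, the light chain common to every class I molecule, had 10384 and 4660 reads and a log2 ratio of 1.16 (1.11 to 1.21). H2-K1, a classical heavy chain, had 918 and 388 reads and a log2 ratio of 1.24 (1.07 to 1.42). H2-D1, the other classical heavy chain listed, had 399 and 142 reads and a log2 ratio of 1.49 (1.21 to 1.78). The ratios of B2m and H2-K1 were not separable, with B2m over H2-K1 at 0.942 (0.830 to 1.07) of its scramble value, and neither were those of H2-D1 and H2-K1, at 1.19 (0.943 to 1.5). B2m over H2-D1 was lower in the mimic library, at 0.793 (0.648 to 0.966). Together the 3 chains took 628 and 277 CPM. Heavy chains resemble each other closely, and 8.79% of the 50-base windows of H2-K1 and 14.3% of those of H2-D1 occur in other genes, so their counts depend on how such reads were treated. The class I alleles of TM4 cells can also differ from the reference, which was not examined.

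In order of their ratio the members ran Psmb8, Psmb9, H2-D1, H2-K1, B2m, Tap1, Psmb10, Tapbp, Tap2 and Erap1. Neighbours whose difference lay within counting error were H2-D1 and H2-K1, H2-K1 and B2m, Tap1 and Psmb10, and Tapbp and Tap2. The levels, in CPM per kilobase of transcript, gave another order. B2m was the highest in both libraries, at 648 and 289. Psmb8 was the second highest in the mimic library, at 181, and the fourth in the scramble library, at 21.8, where Tapbp at 35.5 and Psmb10 at 26.2 lay above it. In the mimic library Psmb10 at 47.6 and Tapbp at 47.5 were not separable, and neither were Tap2 at 10.5 and H2-D1 at 10.2. Erap1 had the lowest level in both libraries, 2.43 and 3.21, and in the scramble library neither H2-D1 at 3.61 and Psmb9 at 3.44 nor Psmb9 and Erap1 could be separated. H2-K1 had 30.4 and 12.8, and Tap1 19.6 and 10.4.

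Transcript length moved with the ratio over all genes and has to be read beside these values. Across 11772 tested genes with an annotated coding transcript, Spearman's rho between the length of the longest one and the log2 ratio was -0.446, given as a description, since all genes share the same pair of libraries. In 10 groups of like length the median log2 ratio went from 0.45 in the shortest to -0.26 in the longest. The members were short, with a median of 1865 nucleotides against 3192. With the median of its length group subtracted, B2m, which has 860 nucleotides, came to a log2 ratio of 0.71 and left the 2-fold class, as 4 of 10 remained past the limit and the members' median was 0.80. Psmb8 came to 2.82, Psmb9 to 1.51, H2-D1 to 1.38 and H2-K1 to 1.02, and Psmb10 to 0.41. Among the transport and trimming genes Tap1 came to 0.90, Tapbp to 0.40, Tap2 to 0.38 and Erap1 to -0.20. Within its length group Psmb8 lay at percentile 99.8 and Psmb10 at 83.8, and Erap1 at 29.6. What part length has in the ratios was not tested.

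**Figure D3:**
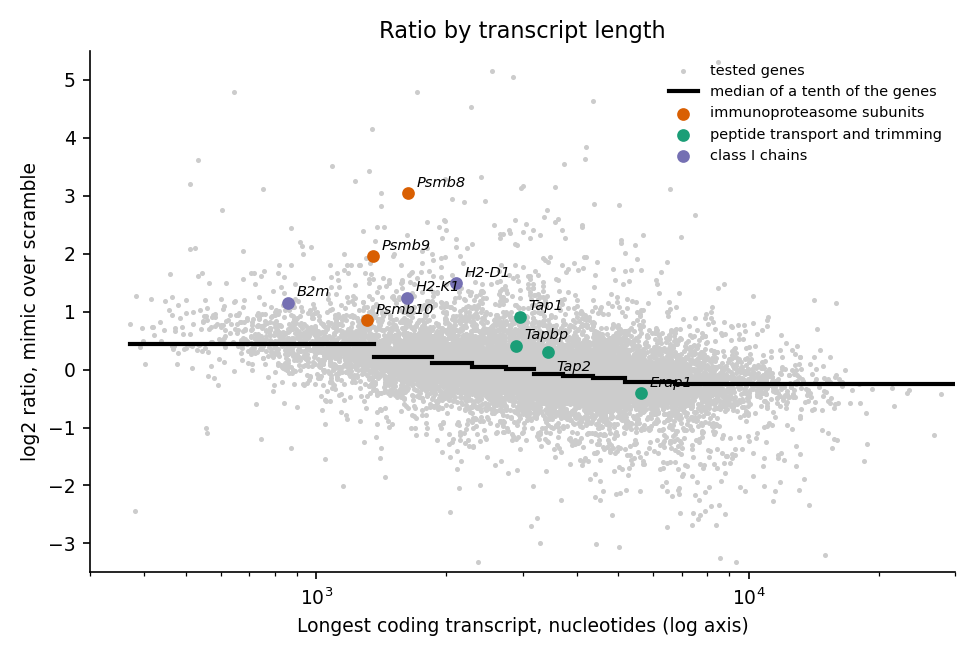
Log2 ratio of mimic over scramble against the length of the longest coding transcript in nucleotides (log axis) for 11769 tested genes (grey), with the median of each of 10 length groups (black bars) and the members in colour. The bars descend from 0.45 to -0.26, and every member except Erap1 lies above the bar of its own length.

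Of the members, 7 are on chromosome 17 in the MHC region, and Psmb9, Tap1, Psmb8 and Tap2 lie side by side within chr17:34181987-34216321 (GRCm38). Psmb9 and Tap1 are read in opposite directions from 1 short stretch, with 225 bases between their RefSeq starts. Their log2 ratios were nonetheless 1.96 and 0.91, and Psmb9 over Tap1 was 2.06-fold (1.59 to 2.70) higher in the mimic library. The starts of Tap1 and Tap2 lie at -10.2 kb and 5.81 kb from that of Psmb8, which exceeded Tap1 by 4.37-fold (3.83 to 4.99) in this change. A list of 17 tested genes of the MHC region held neither members nor class I genes and is not every gene there. Of these 17, 0 were past 2-fold, against 3.96% of all tested genes higher and 3.08% lower. Their median log2 ratio was 0.28, from -0.22 in Vps52 to 0.91 in Ager, which had 32 and 17 reads. Brd2, whose start lies at -85.7 kb from that of Psmb8, had 9057 and 7100 reads and a log2 ratio of 0.35 (0.31 to 0.40). Brd2, Tap1 and Tap2, the listed genes next to Psmb9 and Psmb8, had lower ratios than these. The class I genes placed in the region, other than members, ran from 0.41 in H2-K2 to 1.496 in H2-T23. Past Tap2, the next listed gene was Notch4, at 367 kb from Psmb8. As the members and the list were chosen with earlier results known, nothing is read from this contrast.

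Exons on the opposite strand overlap several members, and how the counting treated strand is not given in the sources used here. The longest Psmb9 and Tap1 transcripts overlap each other by 212 bases, which is 15.7% of Psmb9. Psmb8 is overlapped over 11.4% of its length, Tap2 over 19.8%, Tapbp over 23.5% and Erap1 over 14.8%, the last by Cast, which had 1883 and 1927 reads. If strand was not used, reads in these stretches cannot be told apart from those of the partner gene. The genes that overlap Psmb8, Tap2 and Tapbp have no gene row under their symbols, unlike Psmb9, Tap1 and Cast. Psmb10, B2m, H2-K1 and H2-D1 have no such overlap.

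Promoters of some members are shown so that their sequences can be compared. That of Psmb9 is not printed, as it shares 275 bases with the one of Tap1. The printed ones are those of Psmb8, Tap1, B2m, H2-K1, H2-D1 and Erap1, the 1 member that was lower. Each runs from 250 bases before to 50 bases after the RefSeq start (GRCm38.p6), 5′ to 3′ on the strand of the gene, and 9 of the 10 members had an entry. Capitals mark matches on either strand to 4 motifs, the ISRE core GAAANNGAAA of interferon-stimulated genes, the GAS element TTCNNNGAA bound by STAT factors, the kappa B element GGGNNTTNCC bound by NF-kappa B, and the CCAAT box, and none of the marked matches overlap.
Psmb8, chr17:34197945-34198244, plus strand: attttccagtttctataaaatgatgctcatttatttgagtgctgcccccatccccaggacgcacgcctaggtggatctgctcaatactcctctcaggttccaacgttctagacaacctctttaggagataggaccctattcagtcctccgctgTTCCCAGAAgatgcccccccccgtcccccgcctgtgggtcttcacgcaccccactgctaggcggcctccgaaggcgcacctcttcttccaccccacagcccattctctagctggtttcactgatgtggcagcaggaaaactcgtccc
Tap1 (Psmb9 reads away on the other strand), chr17:34187306-34187605, plus strand: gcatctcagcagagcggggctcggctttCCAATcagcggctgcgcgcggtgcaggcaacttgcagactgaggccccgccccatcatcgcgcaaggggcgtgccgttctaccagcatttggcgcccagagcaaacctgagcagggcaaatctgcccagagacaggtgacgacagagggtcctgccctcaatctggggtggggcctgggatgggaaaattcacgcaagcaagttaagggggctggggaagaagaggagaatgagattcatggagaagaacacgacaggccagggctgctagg
B2m, chr2:122147437-122147736, plus strand: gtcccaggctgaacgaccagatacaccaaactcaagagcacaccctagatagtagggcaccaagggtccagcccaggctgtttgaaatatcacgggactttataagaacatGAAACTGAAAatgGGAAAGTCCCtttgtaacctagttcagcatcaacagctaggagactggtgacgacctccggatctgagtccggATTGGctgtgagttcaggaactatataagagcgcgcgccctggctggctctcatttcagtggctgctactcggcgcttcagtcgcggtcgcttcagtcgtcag
H2-K1, chr17:34000298-34000597, minus strand: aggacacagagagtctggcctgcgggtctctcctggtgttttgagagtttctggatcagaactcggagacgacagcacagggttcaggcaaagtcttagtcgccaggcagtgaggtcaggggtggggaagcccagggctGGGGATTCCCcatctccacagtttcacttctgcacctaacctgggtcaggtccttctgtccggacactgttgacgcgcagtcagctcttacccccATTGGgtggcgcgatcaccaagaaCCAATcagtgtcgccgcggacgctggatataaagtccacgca
H2-D1, chr17:35262844-35263143, plus strand: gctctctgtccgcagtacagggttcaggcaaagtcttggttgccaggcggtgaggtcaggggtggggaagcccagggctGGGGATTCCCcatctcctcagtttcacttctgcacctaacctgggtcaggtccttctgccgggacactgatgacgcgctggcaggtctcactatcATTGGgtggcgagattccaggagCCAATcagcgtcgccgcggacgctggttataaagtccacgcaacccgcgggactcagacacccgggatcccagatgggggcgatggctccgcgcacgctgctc
Erap1, chr13:74639603-74639902, plus strand: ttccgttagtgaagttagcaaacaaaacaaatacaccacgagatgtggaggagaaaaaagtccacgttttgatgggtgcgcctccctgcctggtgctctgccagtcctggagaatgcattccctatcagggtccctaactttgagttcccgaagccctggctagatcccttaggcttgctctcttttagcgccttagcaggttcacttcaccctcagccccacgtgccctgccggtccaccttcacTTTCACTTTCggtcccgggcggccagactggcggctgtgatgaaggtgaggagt

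The exact letters of the ISRE core were found in B2m and Erap1, a pair with opposite ratios, and in 3.44% of 32851 RefSeq promoters. Psmb8 held the GAS motif from base -97 to -89 relative to its start, as do 8.30% of promoters. The kappa B motif was found in B2m, H2-K1 and H2-D1 and in 4.79% of promoters, and its letters GGGGATTCCC were the same in both heavy chain genes. The CCAAT box was found in B2m, H2-D1, H2-K1, Psmb9, Tap1 and Tapbp and in 37.4% of promoters. The Psmb9 and Tap1 matches are the same bases read on opposite strands, since the windows of these genes overlap. Psmb10 held none of the 4. A match is a run of letters and not a bound site. Only exact letters were sought, so a near match, such as tttcacttct in the H2-K1 and H2-D1 windows, was not marked as an ISRE core. GENCODE also places other starts for some of these genes, so a motif missing from a window says nothing about the factor.

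Other genes of the pathway, from lists drawn up around the members, were mostly closer to 0. Past 2-fold were 3.96% (higher) and 3.08% (lower) of all tested genes, so 0 in a short list differs little from these shares. The 3 constitutive catalytic subunits had log2 ratios of 0.81 (Psmb5), 0.60 (Psmb6) and 0.36 (Psmb7), so 0 of 3 were past 2-fold. Of the 11 other subunits of the proteasome core, 0 were past 2-fold and the median was 0.31, from -0.51 in Psma3 to 0.66 in Psma2. That median was -0.14 once the median of each length group was subtracted, and 4 of the 11 lay above the median of their own length group. In the regulatory cap of the proteasome, 0 of 18 subunits were past 2-fold and the median was 0.03, from -0.35 in Psmd1 to 0.62 in Psmc1. Psmb8 and Psmb9 had ratios above every other proteasome gene of these lists. Psmb10 at 0.86 lay below the assembly factor Psmg4, at 0.92 with 191 and 101 reads. As the group was chosen with earlier results of these libraries known, nothing is read from this order.

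Activators and assembly factors of the proteasome also had 0 of 10 genes past 2-fold, with a median of 0.50. Psme1 and Psme2, which form the activator associated with antigen processing, had 899 and 524 reads and 504 and 337 reads, with log2 ratios of 0.78 and 0.58. Pomp, the chaperone that assembles new proteasomes, had 1027 and 638 reads and a log2 ratio of 0.69. Psme4, a nuclear activator, was lower in the mimic library at -0.77, with 2731 and 4652 reads.

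The general chaperones of peptide loading did not follow the class I chains. Calr stood at 0.24, Tapbpl, a relative of tapasin, at 0.06, Canx at -0.08 and Pdia3 at -0.17, with 0 of 4 past 2-fold. Of 7 cytosolic and other peptidases, 0 were at least 2-fold higher and 1 was at least 2-fold lower. This was Lnpep, a trimming peptidase related to Erap1, with 232 and 682 reads and a log2 ratio of -1.56 (-1.78 to -1.34). The median of the 7 was -0.31, and Erap1 at -0.41 lay near it. Lnpep has a transcript of 12052 nucleotides, and it lay at percentile 4.24 within its length group.

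**Figure D4:**
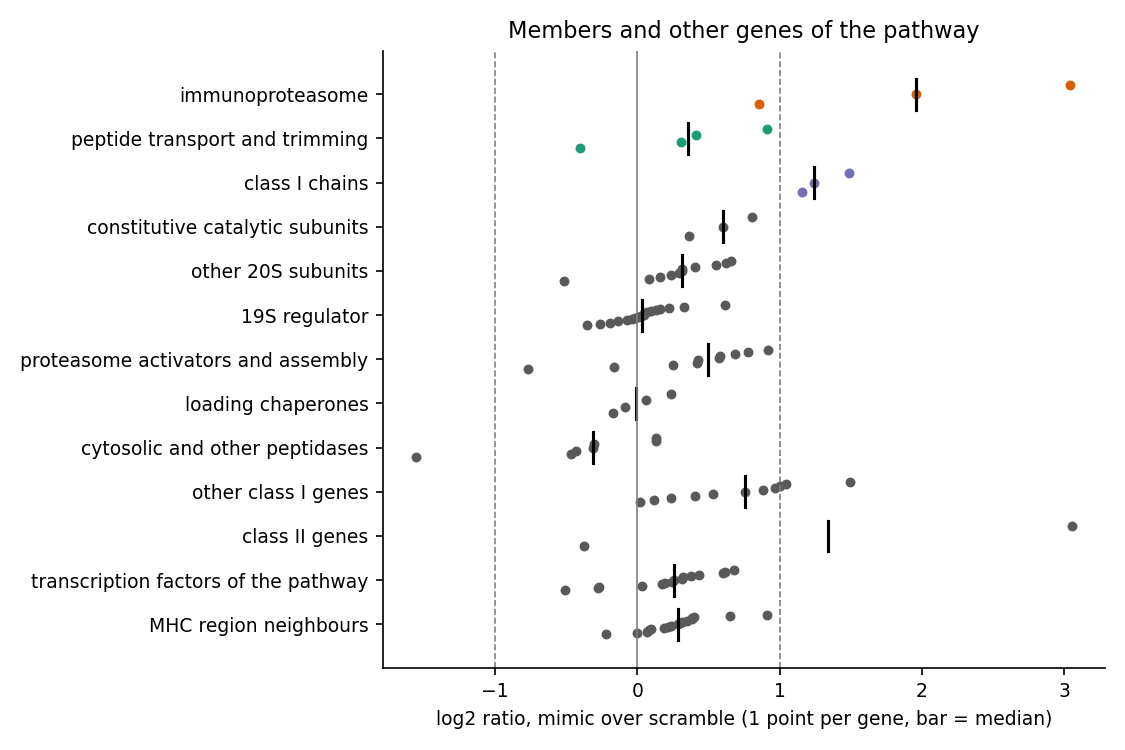
Log2 ratio of mimic over scramble for each tested gene of the members' roles (coloured) and of the other lists of the pathway (grey), 1 point per gene, with the median of each list as a black bar and dashed lines at 2-fold in either direction. Proteasome core, cap and chaperone genes lie between the dashed lines, and Psmb8 and Cd74 are the points farthest to the right.

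Of 22 other class I genes in the tables, 11 had enough reads. At least 2-fold higher were 2 of these and lower 0, against 3.96% and 3.08% of all tested genes. H2-T23, a nonclassical chain known as Qa-1, had 666 and 236 reads and a log2 ratio of 1.496 (1.28 to 1.72), close to H2-D1. H2-T24 had 35 and 17 reads, at 1.04 (0.17 to 1.97), and H2-Q10 lay just below the limit at 0.999 (0.03 to 2.04) with 28 and 14. The median of the 11 was 0.75, and in 7 of them the counting interval lay above 0. That was also so for 9 of the 11 other core subunits of the proteasome and 6 of the 18 cap subunits. It held as well for 11 of the 15 transcription factors. The share over all tested genes was not computed, so nothing is read from the 7. H2-T23 shares 28.8% of its 50-base windows with other genes. Fcgrt, the Fc receptor that also pairs with B2m, had 662 and 562 reads, at 0.24, and Mr1, which shows vitamin metabolites, had 331 and 326, at 0.02.

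Class II genes were nearly undetected apart from Cd74 and H2-DMa, and 6 of 11 had 0 reads in both libraries. Cd74, the invariant chain, had 108 and 13 reads and a log2 ratio of 3.05 (2.22 to 4.01), about that of Psmb8. H2-DMa, which helps load class II, had 151 and 196 reads and a log2 ratio of -0.38 (-0.69 to -0.06). Ciita, the activator of class II genes, had 0 and 3 reads, which is at that floor of 3 reads. Macrophage and leukocyte markers, which class II genes often accompany, had the sums of 29 and 36 reads given above.

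Of 15 tested transcription factors that act on these genes, 0 were past 2-fold, against 3.96% of all tested genes higher and 3.08% lower. Their median log2 ratio was 0.26. Nlrc5, the activator of class I genes, was the highest at 0.68 (0.50 to 0.86), with 653 and 408 reads. Irf9 had 1841 and 1203 reads and Stat2 3238 and 2130, with log2 ratios of 0.61 and 0.60, and these are partners in the complex that reads the ISRE. Irf1 was abundant, with 11876 and 9514 reads and a log2 ratio of 0.32. Nfkb1 was the lowest at -0.51, with 1209 and 1721 reads, while Irf8 had 0 reads in both libraries. That these ratios lie below those of the 5 members past 2-fold follows from the limit itself, and nothing is read from it.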

How the data were processed

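RNA from Ago2 immunoprecipitation of TM4 cells was sequenced as 1 library per group. The deposited tables hold unnormalized read counts, with 22609 genes and 5 summary rows a library, made with CASAVA 1.8.2, TopHat2 2.0.8b, HTSeq and build mm9 according to the submitters' processing notes. Their parameters, the annotation and the strand setting are not given in the sources used here. The summary rows were left out. Of all entries 52.7% (mimic) and 55.9% (scramble) were on genes, 39.8% and 35.6% aligned to more than one place, 6.84% and 7.89% lay outside genes, and 0.653% and 0.585% overlapped several genes.

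R 4.3.3 with edgeR 4.0.16 gave TMM factors of 1.0026 and 0.9974, and a gene needed 20 or more counts summed over the libraries to be tested. The quasi-likelihood test could not be fitted with 1 library per group, so a ratio of at least 2-fold was counted instead. Intervals of 95% (Clopper-Pearson for a gene, the conditional exact odds ratio for a pair of genes) were computed in Python 3.11.15 with scipy 1.17.1 and tested on simulated data. With 1 library per group the intervals cover counting error only. Reads are not marked by molecule, so copies of 1 molecule can count as separate reads and the intervals can be too narrow. The simulated reads were drawn independently and could not show this. Levels per length used the longest coding transcript of GENCODE M21 (GRCm38). Seed matches were sought in the longest coding region and 3′-UTR, and promoters and the miRNA came from RefSeq (GRCm38.p6). This build differs from mm9, so coordinates are those of the reference and were not used to join the counts.

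Members and gene lists were chosen with earlier results of these data known. Named genes were the members and, in each list, the highest and lowest ratio, genes past 2-fold and genes with a stated role. H2-Q10, Brd2, Fcgrt and Mr1 were singled out after their values were seen. Alternatives were DESeq2 1.42.0 size factors, total counts, other count minimums and folds, members left out, levels without length and, added after seeing the data, ratios adjusted for transcript length. Values of some listed genes are not reported here.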

Additional observations from a re-analysis of the deposited data

Results flagged for a closer look

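Entries that aligned to more than one place took 39.8% of all entries after the mimic and 35.6% after scramble. The tables hold these entries in a row apart from the gene counts. Entries that overlapped more than one gene took 0.653% and 0.585%. Both were singled out because they lie outside the gene counts and were higher in the mimic library than in the scramble library. With 1 library per group neither difference has a replicate check. Which genes these entries belong to cannot be read from the tables, and members with copies elsewhere, such as H2-K1 and H2-D1, or with overlapping exons, such as Psmb9 and Tap1, have exons where such entries can arise.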

How the results depend on the processing

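Apart from places in the order of levels, 40 alternative values stayed within counting error (counts of genes within 1.5 times) and 16 did not, and none turned a called direction. Many of the 40 could hardly move, so their number is no measure of robustness. The ratios of catalytic pairs do not depend on scaling, and with TMM factors of 1.0026 and 0.9974 the other scalings barely differed. With no count filter 3292 of all genes were past 2-fold in either direction, against 858 with the filter and 427 with a minimum of 200 counts. The count was 2530 at 1.5-fold, 151 at 4-fold and 363 with the whole counting interval past 2-fold. The count of members at least 2-fold higher was 5, but 1 at 4-fold and 3 without H2-K1 and H2-D1. The members' median log2 ratio, 1.03, was 0.88 without H2-K1 and H2-D1, 0.91 without Psmb8, and 0.80 with the median of genes of like transcript length subtracted, a setting chosen after seeing the data. Scaling by DESeq2 or by total counts moved no member across the limit. Without division by length, 15 places in the order of levels changed and 5 did not, some of them between genes that counting error does not separate, and Psmb8 over Psmb5 became 9.27 and 1.97. No paired analysis was possible because there was 1 library per group, and for the same reason no library could be left out. Depth limits genes such as H2-T24 and Ager, whose intervals reach to both sides of the 2-fold limit.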
